A study of Mus musculus with 58 samples.

Results

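The 10 genes described here, Glul, Rnf43, Axin2, Lgr5, Tbx3, Znrf3, Rhbg, Slc1a2, Oat and Notum, are targets of Wnt signalling in the hepatocytes around the central vein of the liver. They were taken from a list of known pericentral targets, with earlier results of these data known. All 10 were measured among the 22180 genes of the arrays. RNA came from normal liver (29 arrays) and liver tumors (29 arrays) of adult mice of a background mixed from 129/Sv, C57BL/6 and FVB/NJ mice. All of them, those that gave the normal livers included, had been treated with adeno-associated virus (AAV) as newborns, and the study asked whether insertion of the vector into the genome contributed to hepatocellular carcinoma. The titles were read as 39 animals, 18 of which gave 1 array of each tissue, and tumors 22 and 26 came from 1 animal. The labels call 9 normal livers female and 20 male, and 11 tumors female and 17 male, with 1 tumor lacking that label. Titles mark 5 normal livers and 5 tumors as +/- and 4 normal livers and 5 tumors as -/-, without naming the gene. The title of normal liver 4, marked +/-, also holds the word GFP, with no explanation. Normal livers 26 (+/-) and 27 (-/-) bear 1 animal number with opposite marks and were counted as different animals. The labels give no vector dose, and the normal tissue is liver of treated mice, so no untreated liver serves as a reference. Numbers after "tumor" and "normal liver" only name arrays.

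In normal liver, Wnt proteins and R-spondin 3 made by the endothelium of the central vein keep beta-catenin stable in the hepatocytes next to it. There beta-catenin and its TCF/LEF partners switch on enzymes and transporters that capture ammonia and glutamate. They also switch on feedback genes of the pathway itself, namely its receptor Lgr5, the ligases Rnf43 and Znrf3, the scaffold Axin2 and the secreted enzyme Notum. Mutations that stabilise beta-catenin are known in liver tumors of mice and people, and in such tumors glutamine synthetase (Glul) and the feedback genes are typically raised together. This is the reason for asking, tumor by tumor, whether the 10 genes rose as a set. The arrays do not read the sequence of Ctnnb1.

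Promoter sequences from 250 bases before to 50 bases after the start were given in the RefSeq table of assembly GRCm38.p6 for 5 of the 10 genes, as 6 promoters. They are shown for Glul, whose level differed most between the tissues, and for Oat, which moved the other way. Slc1a2 is shown as the gene among these 5 with a match to the form of the TCF/LEF core searched for. That core was searched as CTTTGAT, which reads ATCAAAG on the other strand, and capitals mark it. Glul lies on the plus strand (chr1:153899679-153899978), as does Slc1a2 (chr2:102706188-102706487), and Oat lies on the minus strand (chr7:132576349-132576648).
Glul: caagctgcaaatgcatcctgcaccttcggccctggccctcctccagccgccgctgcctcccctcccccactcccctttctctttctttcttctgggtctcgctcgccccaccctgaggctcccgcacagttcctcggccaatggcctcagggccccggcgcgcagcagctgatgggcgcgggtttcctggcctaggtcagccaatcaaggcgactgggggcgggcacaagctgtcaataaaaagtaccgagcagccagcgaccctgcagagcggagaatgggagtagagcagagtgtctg
Slc1a2: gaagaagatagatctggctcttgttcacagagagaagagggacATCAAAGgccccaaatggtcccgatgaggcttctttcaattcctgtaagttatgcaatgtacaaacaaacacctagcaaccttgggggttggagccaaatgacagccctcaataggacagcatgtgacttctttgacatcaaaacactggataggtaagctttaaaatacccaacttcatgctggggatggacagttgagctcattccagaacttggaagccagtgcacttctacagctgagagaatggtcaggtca
Oat: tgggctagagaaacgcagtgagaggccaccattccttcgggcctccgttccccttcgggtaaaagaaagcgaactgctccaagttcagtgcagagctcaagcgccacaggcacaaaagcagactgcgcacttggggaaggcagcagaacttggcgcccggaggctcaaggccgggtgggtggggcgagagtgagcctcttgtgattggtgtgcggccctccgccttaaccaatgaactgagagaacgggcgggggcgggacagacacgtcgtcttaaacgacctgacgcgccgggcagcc
The motif occurred in 1 of the 6 promoters, that of Slc1a2, against 1225 of all 32851 promoters in the table (3.73%). A match is a run of letters and not a site shown to be bound, and a promoter without it says nothing of more distant elements.

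Several arrays stood apart from their label. A position was computed for each array over 22138 genes outside the pericentral and periportal lists, with its own animal left out, so that 0 is the mean of the normal livers and 1 that of the tumors. It ran from -0.28 to 1.05 in normal liver (median -0.03) and from -0.03 to 1.41 in tumors (median 1.04). Normal liver 27 lay at 1.05 and normal liver 16 at 0.88, whereas tumor 20 lay at -0.03, tumor 1 at -0.00265 and tumor 24 at 0.05. Tumor 9 lacked the level of hepatocyte markers of the others: its mean over 9 of them was 7.85 on the log2 scale, against 11.43 or more in every other array, and its mean over 12 T, B and NK cell markers, 10.66, was the highest of the 58 arrays. By Xist and Y-linked genes 7 arrays went against their gender label. Some of the results that rest on normal liver 27 or tumor 9, but not all, are given with and without them below.

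Of the 10 genes, 8 were lower in tumors, 1 was higher and 1 did not pass the test, counting an adjusted p under 0.05 in a limma fit with the animal as a random block. Over all 22180 genes 14.3% were called lower and 17.9% higher by the same rule. These were 3166 and 3964 genes, and with each array centred on its median 1727 and 4689, while the counts of the 10 genes were 8 and 1 under both scalings. The median change of the 10 genes was -1.13 on the log2 scale, against -0.02 over all genes. The values are log2 signals of 1 probe set (transcript cluster) per gene, so a difference of 1 is a doubling, and levels of different genes cannot be compared. In whole tissue, fewer cells of a type and less RNA per cell cannot be told apart.

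**Figure D1:**
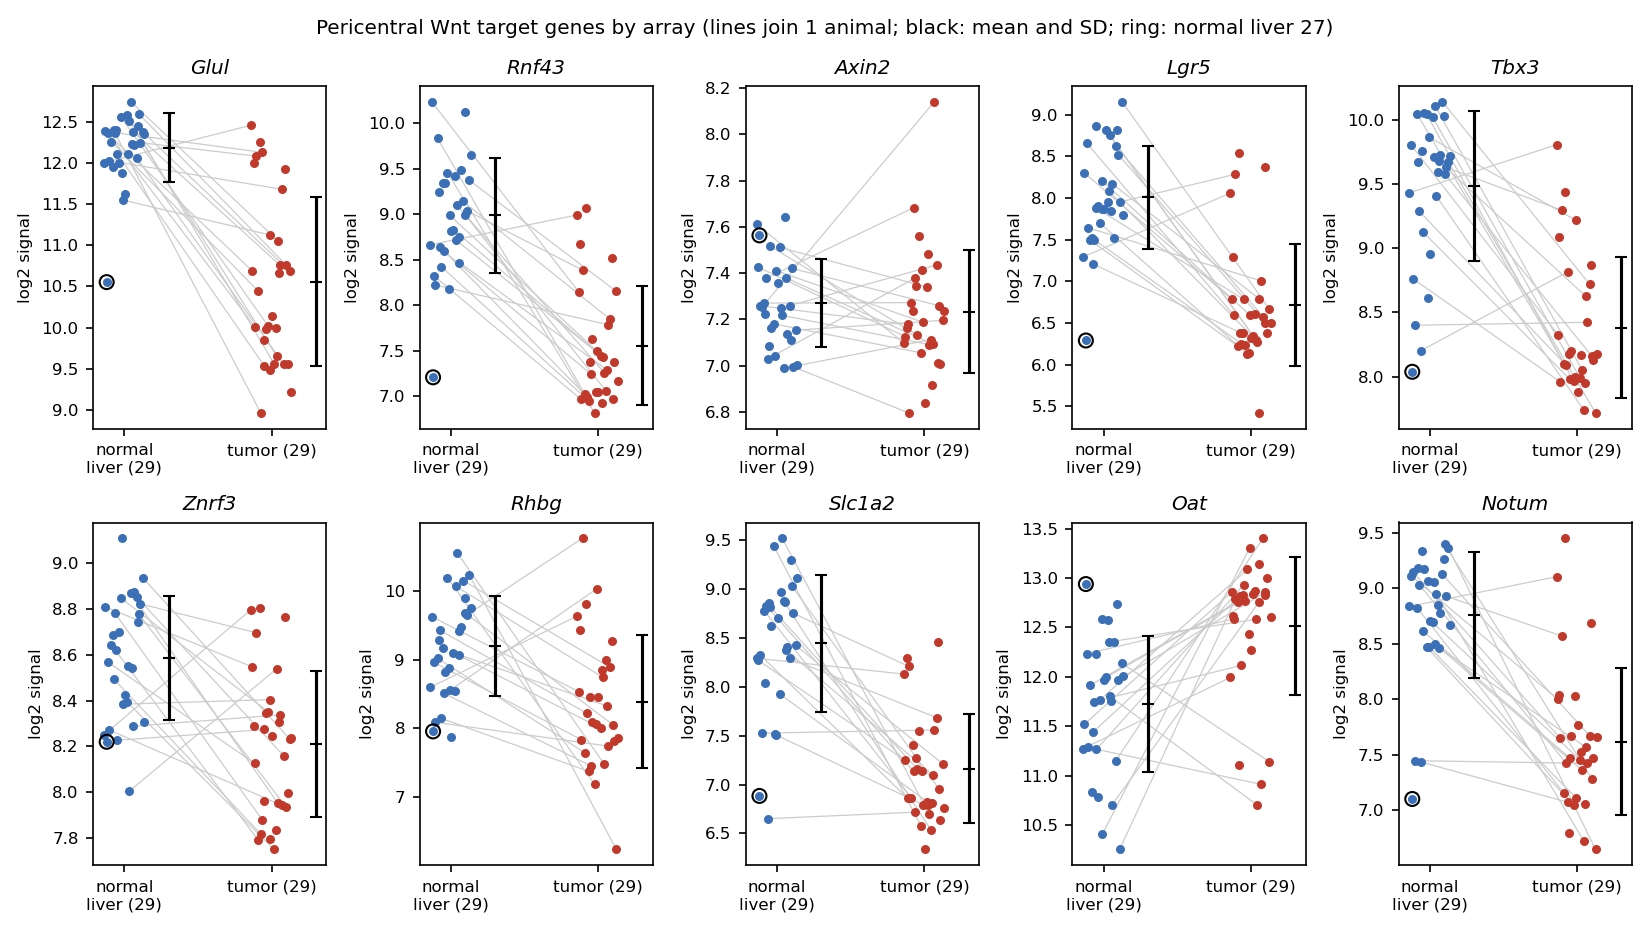
Log2 signal of each of the 10 genes in the 29 normal livers (blue) and 29 tumors (red). Grey lines join arrays of 1 animal, black marks are the mean and SD, and the ring is normal liver 27, which was the lowest normal liver for Glul (10.55) and the highest for Oat (12.94).

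The gene with the largest change was Glul (cluster 17218349), which encodes glutamine synthetase and in normal liver is made by the last rows of hepatocytes before the central vein. Its log2 signal in normal liver was 10.55 at the lowest, 12.26 at the median and 12.74 at the highest. In tumors these values were 8.96, 10.44 and 12.46. The normal livers were tightly grouped except for normal liver 27, and 15 of 29 tumors fell below all of them, or 22 of 29 when normal liver 27 was left out. The means were 12.18 ± 0.42 and 10.56 ± 1.03 (SD, n = 29 each), a 3.07-fold lower level in tumors (log2 change -1.62, SE 0.19, limma adjusted p = 1.5e-09). It was lower in the tumor in 17 of 18 pairs. A second, dimmer Glul cluster (17548983) changed by -0.67 (SE 0.08, adjusted p = 4.1e-09 over 23521 clusters).

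Among the transporters and the other enzyme, those for ammonium and glutamate fell while Oat rose. Slc1a2 (cluster 17373696), a glutamate transporter, ran from 6.65 to 9.52 in normal liver (median 8.62) and from 6.34 to 8.46 in tumors (median 7.10). Within the range of the normal livers lay 25 of 29 tumors, and also 25 without normal liver 27. The low end of that range was set by normal livers 16 (6.65) and 27 (6.88), which stood apart in position. The next lowest, normal liver 5 at 7.51, lay above the tumor median. The mean fell by 1.28 on the log2 scale (SE 0.16, limma adjusted p = 2.6e-09), with 16 of 18 pairs lower. Rhbg (cluster 17406688), an ammonium transporter, had the widest range in tumors of the 8 genes that fell. It ran from 7.88 to 10.56 in normal liver (median 9.17) and from 6.24 to 10.77 in tumors (median 8.22). Its change was -0.83 (SE 0.21, limma adjusted p = 0.0015), with 15 of 18 pairs lower, and the lowest value was that of tumor 9 and the highest that of tumor 19.

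Oat (cluster 17497091) encodes ornithine aminotransferase, which passes the nitrogen of ornithine on toward glutamate. It was the only 1 of the 10 that rose in this fit. Normal livers ran from 10.25 to 12.94 (median 11.80) and tumors from 10.70 to 13.41 (median 12.77). All but 5 tumors lay within the range of the normal livers, but the top of that range was normal liver 27, and without it 17 tumors lay above. The log2 change was 0.81 (SE 0.17, limma adjusted p = 2.1e-04), a 1.75-fold higher level, with 15 of 18 pairs higher.

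The feedback genes at the cell surface fell as well. Rnf43 (cluster 17254809), a ligase that removes Wnt receptors from the membrane, ran from 7.21 to 10.24 in normal liver (median 8.99) and from 6.81 to 9.07 in tumors (median 7.37). It changed by -1.43 (SE 0.16, limma adjusted p = 1.7e-10), the smallest p of the 10, and 17 of 18 pairs were lower. With normal liver 27 set aside, 24 of 29 tumors lay below every normal liver, against 11 with it. Znrf3 (cluster 17260150), its close relative, changed less. It ran from 8.005 to 9.11 in normal liver (median 8.62) and from 7.75 to 8.81 in tumors (median 8.24), a change of -0.37 (SE 0.08, limma adjusted p = 7.6e-05) with 13 of 18 pairs lower.

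Lgr5 (cluster 17245059), a receptor for R-spondins that marks pericentral hepatocytes, ran from 6.29 to 9.16 in normal liver (median 7.90) and from 5.42 to 8.54 in tumors (median 6.50). It changed by -1.30 (SE 0.17, limma adjusted p = 9.5e-09), with 16 of 18 pairs lower. Tumors below all normal livers numbered 7, or 24 without normal liver 27. A dimmer Lgr5 cluster (17237400) changed by -0.10 (SE 0.04, adjusted p = 0.029).

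Notum (cluster 17273260), a secreted enzyme that inactivates Wnt proteins, ran from 7.10 to 9.40 in normal liver (median 8.85) and from 6.65 to 9.45 in tumors (median 7.47). Its change was -1.15 (SE 0.15, limma adjusted p = 1.6e-08), with 17 of 18 pairs lower, although the highest value of all 58 arrays was that of tumor 24. A dimmer Notum cluster (17259443) changed by -0.11 (SE 0.04, adjusted p = 0.049). Tbx3 (cluster 17441595), a transcription factor of the T-box family, ran from 8.04 to 10.14 in normal liver (median 9.67) and from 7.72 to 9.81 in tumors (median 8.17). It changed by -1.11 (SE 0.14, limma adjusted p = 8.1e-09), with 15 of 18 pairs lower.

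Axin2 is a scaffold of the complex that degrades beta-catenin and a widely used readout of the pathway, and its result depended on which of its clusters was read. The brighter by a margin of 7.252 against 7.246 in the mean over all arrays was cluster 17271197, which the rule for choosing a cluster took. It ran from 6.99 to 7.64 in normal liver (median 7.25) and from 6.80 to 8.14 in tumors (median 7.19). Its change was -0.04 (SE 0.06, limma adjusted p = 0.66), with 11 of 18 pairs lower and 7 higher, and 0.02 with arrays centred on their medians. The other, cluster 17257801, ran from 6.58 to 7.93 in normal liver (median 7.56) and from 6.58 to 7.77 in tumors (median 6.93). The means were 7.52 ± 0.31 and 6.97 ± 0.24 (SD, n = 29 each), a change of -0.55 (SE 0.07, limma adjusted p = 7.6e-09 over 23521 clusters), and 17 of 18 pairs were lower. Leaving out normal liver 27, 25 of 29 tumors lay below every normal liver on this cluster.

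The 2 Axin2 clusters differ in the strand of their neighbours in cluster-number order. RefSeq places Axin2 on the plus strand of chromosome 11. The 20 nearest named clusters in number order around 17257801 were all genes of the plus strand of that chromosome, and the 20 around 17271197 were all genes of its minus strand. For Glul, Slc1a2 and Oat, the cluster read lay among 20 of 20 neighbours of the gene's own strand, and for Rnf43 among 19 of 20. Of the 20 neighbours of the dimmer Glul cluster (17548983), only 3 were on chromosome 1, where Glul lies. These neighbours were 11 plus-strand and 9 minus-strand genes. For Lgr5 and Notum, all 20 neighbours of the cluster read were minus-strand genes, and all 20 of the dimmer cluster were plus-strand genes. The files used here do not state which strand any of these clusters, the 2 of Axin2 included, was designed to read. With the mean of all clusters of a gene in place of the brightest, all 10 genes passed the test, 9 lower and 1 higher, and Axin2 changed by -0.29 (limma adjusted p = 2.7e-07).

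**Figure D2:**
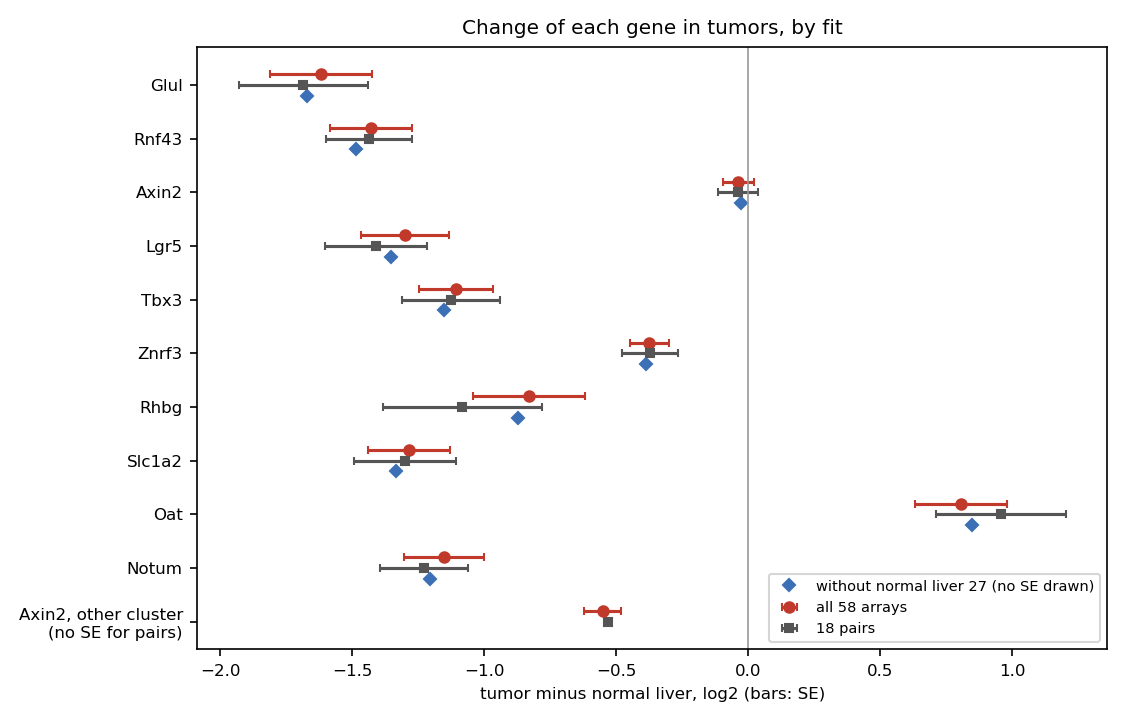
Change from normal liver to tumor (log2, horizontal axis) for each gene in the fit of all 58 arrays (red, with SE), in the 18 pairs (grey, with SE) and without normal liver 27 (blue). The 3 estimates lie close together for each gene, and the other Axin2 cluster lies at -0.55, apart from the cluster read at -0.04.

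Within the animals that gave both tissues the same picture was seen. In a fit of the 18 pairs that blocked on the animal, 8 of the 10 genes were lower and Oat was higher, against 8.13% lower and 12.6% higher over all genes. The limma adjusted p of these 9 lay between 1.1e-05 (Rnf43) and 0.017 (Znrf3). The Glul difference between a tumor and its own liver ran from -3.43 to 0.46 with a median of -1.76, and only tumor 1 was above its own liver. For Oat it ran from -1.10 to 2.898 with a median of 0.87, and the 3 tumors below their own liver were tumors 9, 15 and 20. For Rhbg it ran from -4.001 in tumor 9 to 1.48 in tumor 5, the widest range of the 10. Tumors 22 and 26, both of 1 animal, had Glul at 9.22 and 9.49 and Rnf43 at 7.17 and 7.05. They lay further apart for Znrf3, at 8.24 and 7.79, and for Slc1a2, at 6.76 and 7.14. In the animals without a pair, which are different mice in each tissue, 6 genes were lower and 0 higher, against 3.17% and 6.18% over all genes in that fit. It had no animal block, so tumors 22 and 26 of 1 animal were counted there as separate replicates. Rhbg (-0.36, limma adjusted p = 0.46), Oat (0.52, adjusted p = 0.22) and Znrf3 (-0.38, adjusted p = 0.052) did not pass there. With arrays centred on their medians, Znrf3 did not pass in the pairs either (-0.32, limma adjusted p = 0.087).

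No single tumor raised the genes as a set above the range of the normal livers. Of the 29 tumors, 20 had none of the 10 genes above the highest of the 29 normal livers and 9 had exactly 1. Without normal liver 27 these numbers were 10 with none and 19 with at least 1, and above the mean of the normal livers plus 3 SD only 1 tumor had a gene. With the other Axin2 cluster, 22 tumors had none and 7 had 1. On that cluster tumors 3 and 20 stood at 6.82 and 6.87, within the normal range. In the first count, Oat was the gene in tumors 5, 12, 13, 17 and 28, Axin2 (cluster 17271197) in tumors 3 and 20, Rhbg in tumor 19 and Notum in tumor 24. These were 9 of 290 combinations of gene and tumor, against 6.87% of combinations over all genes. Below the lowest normal liver lay 76 of the 290, against 5.97% over all genes. Of the 10 genes, 4 were above in at least 1 tumor, against 61.2% of all genes.

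The remaining genes gave no tumor above the normal range. The highest tumor value of Glul was 12.46 in tumor 1, below the highest normal liver at 12.74, and for Lgr5 it was 8.54 in tumor 24 against 9.16. For Rnf43 it was 9.07 in tumor 24 against 10.24, and for Tbx3 9.81 in tumor 1 against 10.14. On the Axin2 cluster among plus-strand neighbours the highest tumor, tumor 1 at 7.77, lay below the highest normal liver at 7.93. Without normal liver 27 the most that a tumor had above the remaining normal livers was 2 genes, in 2 tumors, and combinations above numbered 21 and those below 128. The shares over all genes were then 7.59% and 6.44%. Of the 18 tumors with a liver of the same animal, tumors 5 and 19 had 2 genes more than 1 log2 unit above it, Rhbg (1.48 and 1.12) and Oat (2.898 and 2.53). In tumors 5 and 19, Glul (-0.42 and -0.16) and Rnf43 (-1.49 and -0.65) lay below that liver. Znrf3 in tumor 5 (0.02) and Lgr5 in tumor 19 (0.33) lay above it, and the remaining genes below.

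**Figure D3:**
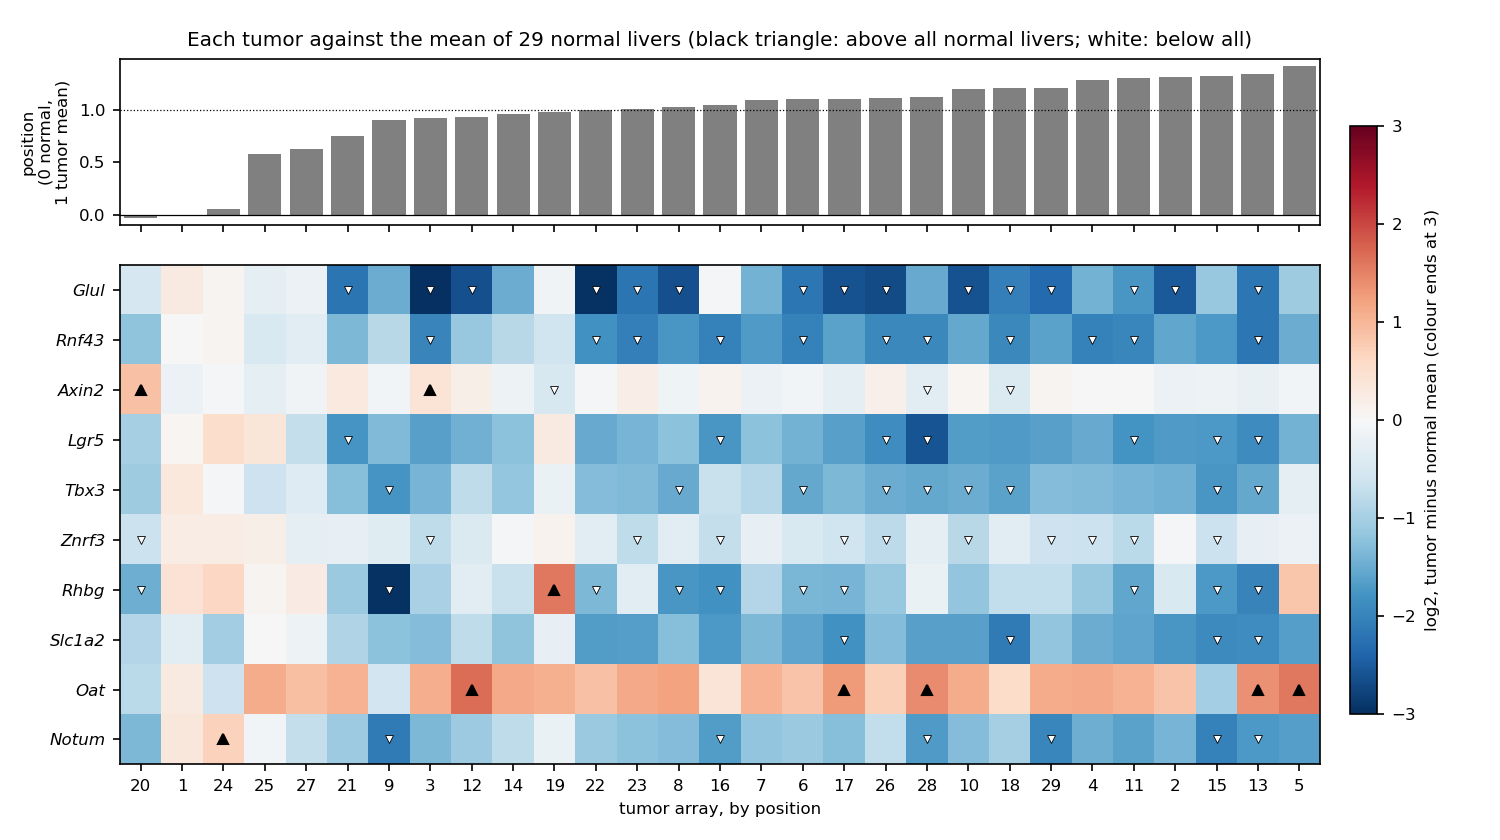
Top, position of each of the 29 tumors between the mean of the normal livers (0) and that of the tumors (1), in rising order. Bottom, log2 difference of each gene from the mean of the normal livers (blue lower, red higher, colours end at 3), with black triangles above and white triangles below all 29 normal livers; no column has more than 1 black triangle.

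Some tumors kept the genes at the level of normal liver. Tumor 1 had 8 of the 10 genes above the mean of the normal livers and tumor 24 had 6, and both lay at the normal mean in position. Against the liver of its own animal, tumor 1 was higher for Glul (0.46), Rnf43 (0.33), Lgr5 (0.77), Tbx3 (0.38) and Znrf3 (0.55). Rhbg (1.04), Oat (0.72) and Notum (0.27) were higher there too, while Slc1a2 (-0.16) and Axin2 (-0.51) were lower. On the other Axin2 cluster tumor 1 stood at 7.77 and that liver at 7.26. In tumor 1, 0.784% of all genes were above the highest normal liver and 0.83% below the lowest, and in tumor 24 these shares were 0.676% and 1.46%. Over all tumors the medians were 6.21% and 5.23%. Tumors 25 and 27, at positions of 0.57 and 0.63, had 5 and 2 genes above the normal mean and Glul at 11.92 and 11.997. What share of normal tissue each tumor sample held was not tested.

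Tumor 19 had the position of a tumor, 0.98, with 10.9% of all genes above and 10.1% below the normal range, and yet near-normal pericentral targets. Its Glul was 12.08, its Lgr5 8.29, its Tbx3 9.30 and its Rnf43 8.38, all within the range of the normal livers. Its Rhbg, 10.77, was the highest of the 58 arrays. Cyp11a1, the enzyme that begins steroid hormone synthesis, was 11.75 there, and the mean over 11 proliferation genes, 9.25, was the highest of all tumors. Its Axin2 was 6.80 on the cluster read, the lowest of all, and 7.26 on the other cluster, below the normal mean of 7.52.

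Glul came apart from 5 of the other targets in tumor 16. Its Glul was 12.13, within the normal range, while Rnf43 (6.95), Lgr5 (6.26), Znrf3 (7.88), Rhbg (7.37) and Notum (7.07) were below every normal liver. Tbx3 (8.82), Slc1a2 (6.72), Axin2 (7.38) and Oat (12.12) were within the normal range, and Tbx3 was 0.62 above the liver of that animal. Its position was 1.04 and its Afp, the fetal liver protein, 12.69. The normal liver of that animal, normal liver 16, had the lowest Slc1a2 of the normal livers (6.65) and stood apart in position at 0.88. In tumor 20, which lay at -0.03 but had 19.4% of all genes above and 14.5% below the normal range, Glul was 11.68, Lgr5 7.01, Rhbg 7.74 and Axin2 8.14, the highest of all arrays on cluster 17271197. On the other Axin2 cluster tumor 20 stood at 6.87.

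Across arrays of 1 tissue, the genes that fell varied together. Among the 28 pairs formed by the 8 genes that fell, the median Pearson r was 0.67 in tumors (0.44 to 0.84) and 0.53 in normal liver (-0.01 to 0.76), or 0.40 without normal liver 27. These are descriptions, since the arrays share hybridization and tissue composition. With Glul, over the 28 animals with a tumor, Tbx3 had the highest Pearson r at 0.74 (Spearman rho 0.56). Permutation p-values were 3e-05 and 0.0025, or 0.00027 and 0.015 after Benjamini-Hochberg adjustment over the 18 relations computed. Lgr5 followed at r = 0.67 (rho 0.46) and Rnf43 at 0.65 (rho 0.42), with adjusted permutation p-values of 0.00054 and 0.00068 for r and 0.054 and 0.068 for rho. Oat ran against Glul, with r = -0.45 and rho -0.41 (adjusted permutation p = 0.024 and 0.068). With arrays centred on their medians Oat did not pass (r = -0.36, rho -0.24, unadjusted permutation p = 0.055 and 0.21), and 7 of 9 genes passed. By Pearson r 8 of 9 genes passed in tumors, and by rho only Tbx3.

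Those relations leaned on few tumors. Without the 2 animals farthest from the median of Glul, those of tumors 1 and 24, r was 0.63 for Tbx3, 0.55 for Lgr5 and 0.51 for Rnf43, and 3 of 9 passed. For Notum it went from 0.49 to 0.24. In normal liver 6 of 9 passed by r and 3 by rho (Rhbg, Slc1a2 and Lgr5). Rhbg had the highest r there, 0.65 (rho 0.66, adjusted permutation p = 0.00027 and 0.0018), and it was 0.64 both without the 2 farthest livers and without normal liver 27. No other gene passed without normal liver 27: Lgr5 went from 0.61 to 0.37 and Rnf43 from 0.52 to 0.21.

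**Figure D4:**
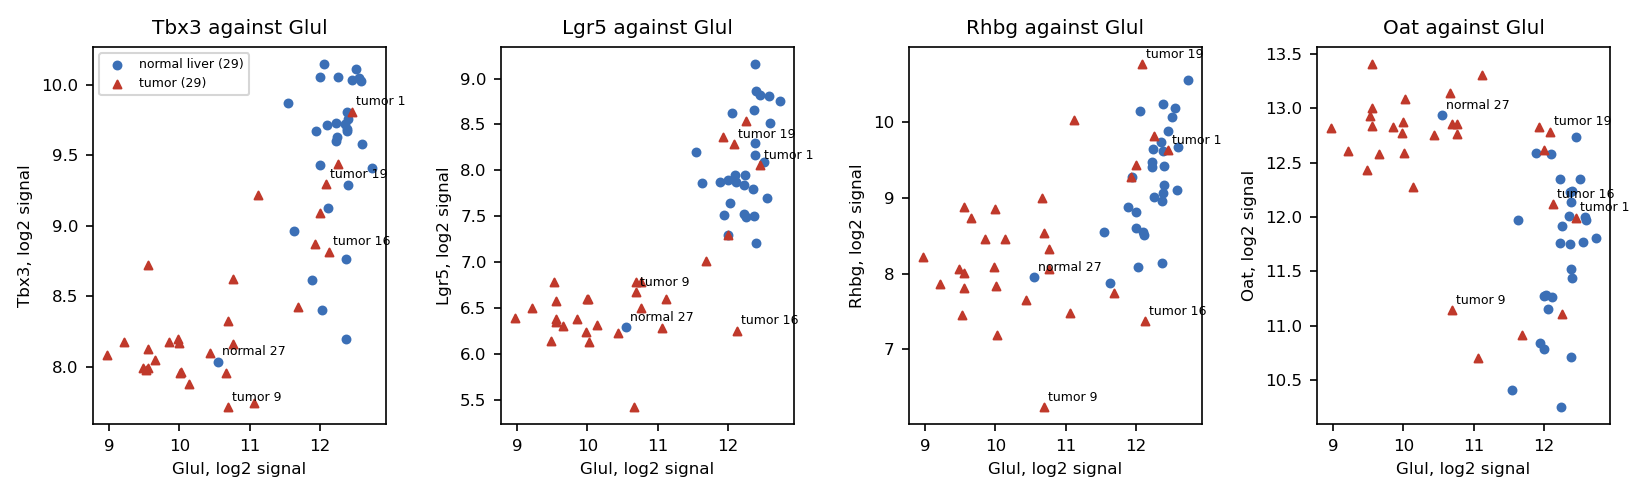
Log2 signal of Tbx3, Lgr5, Rhbg and Oat (vertical axes) against that of Glul (horizontal axis) in the 29 normal livers (blue circles) and 29 tumors (red triangles). Tumor 16 has Glul at 12.13 with Lgr5 at 6.26, and tumor 19 has the highest Rhbg at 10.77.

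The genes whose log2 signal followed that of Glul most closely were not among the 10. Over the 29 tumors they were Reln (r = 0.85), Csf1r (0.79), Ube2e2 (0.79), Tmem258 (0.78) and Cyp3a16 (0.78). Tbx3 stood at rank 22 of the genes, Lgr5 at 74 and Rnf43 at 96. Over the 29 normal livers they were Hrg (0.83), Gulo (0.82), Pon1 (0.80), Paqr9 (0.80) and Clec4g (0.79), of which Gulo and Pon1 are on the list of other pericentral genes. Rhbg stood at rank 63 there. Reln is a marker of stellate cells, Csf1r of macrophages and Clec4g of sinusoidal endothelium.

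Other genes of the central zone changed in the same direction. Of 15 measured pericentral hepatocyte genes outside the 10, 13 fell and 2 rose (Slc1a4 and Lhpp), with a median change of -2.17. In the 18 pairs Lhpp did not pass (0.52, limma adjusted p = 0.18). Nr1i3, the xenobiotic receptor CAR, went from 11.35 ± 0.97 to 8.56 ± 1.31 (SD, n = 29 each; log2 change -2.78, limma adjusted p = 1.3e-11). Gulo, the last enzyme of vitamin C synthesis, changed by -2.31 (limma adjusted p = 3.7e-09), and Rgn, which acts a step before it, by -3.005 (1.6e-07). Of 17 periportal genes 4 rose and 2 fell, with a median of 0.30, and without tumor 9 the counts were 12 and 2. Etnppl, a lyase of phosphoethanolamine, rose by 2.55 (limma adjusted p = 7.1e-09) and Aldh1b1, a mitochondrial aldehyde dehydrogenase, by 2.07 (4.6e-12).

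Upstream, Rspo3 and Wnt2, ligands of the central vein, were lower in all arrays and in the pairs, while 2 other Wnt genes were higher. Of 25 Wnt and R-spondin genes 8 fell and 2 rose, with a median of -0.07, and in the 18 pairs 3 fell and 2 rose. Of the 8, Wnt1, Wnt5a and Wnt6 did not pass with arrays centred on their medians (limma adjusted p = 0.34, 0.11 and 0.11). Rspo3, the R-spondin of the central vein, went from 8.54 ± 0.45 to 7.54 ± 0.63 (SD, n = 29 each), a change of -1.01 (SE 0.13, limma adjusted p = 2.8e-08) with 17 of 18 pairs lower. Wnt2 changed by -0.36 (limma adjusted p = 1.3e-07, 17 of 18 pairs lower) and Wnt9b by -0.20 (0.0069, 14 of 18), which did not pass in the fit of the pairs (-0.22, adjusted p = 0.054). Wnt10a rose by 0.89 (2.2e-08) and Wnt4 by 0.92 (1.6e-07). In tumors 1, 24 and 19, Rspo3 was 8.68, 8.71 and 8.56, near the normal mean. Rspo3 was also near that mean in tumor 9, at 8.62, where Glul was 10.68 and Lgr5 6.67. In tumor 16, which had Glul at 12.13, Rspo3 was 7.33. Whether Rspo3 follows the targets tumor by tumor was not tested.

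Among receptors, 2 of 17 rose and 2 fell, and in the pairs 1 rose and 1 fell. Fzd6, a Frizzled receptor, rose by 0.73 (limma adjusted p = 9.8e-07), Lgr4, the relative of Lgr5, by 0.45 (0.018; 0.25 in the pairs), and Ror2 changed by -0.14 (0.0056). In the destruction complex 3 of 9 rose and 1 fell. Csnk1a1, a kinase that primes beta-catenin for degradation, rose by 0.30 (limma adjusted p = 3.6e-04) and Axin1, the relative of Axin2, by 0.29 (8.2e-05).

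Ctnnb1 itself, which encodes beta-catenin, was 10.90 ± 0.23 in normal liver and 11.03 ± 0.25 in tumors (SD, n = 29 each; log2 change 0.13, SE 0.06, limma adjusted p = 0.11). Of 9 nuclear partners, it included, 2 rose and 2 fell. Tcf7l2, the main TCF factor of liver, changed by -0.74 (limma adjusted p = 3.3e-08), and Ctnnbip1, which blocks beta-catenin from TCF, rose by 0.60 (1.5e-07). Of 17 Wnt inhibitors 4 fell and 0 rose, Nkd1, itself a target of the pathway, by -0.49 (limma adjusted p = 5.6e-06) and Kremen1, a co-receptor of the Dickkopf inhibitors, by -0.37 (3.8e-05). With arrays centred, and in the pairs, Nkd1 and Kremen1 were called and the other two, Dkk4 and Sost, were not.

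Wnt targets known from other tissues went both ways. Of 12 measured, 3 rose and 5 fell. Of those that fell, Sp5 and Dkk4 did not pass in the pairs (limma adjusted p = 0.056 and 0.0505). With arrays centred on their medians they did not pass either (0.14 and 0.27). Sox4, a transcription factor, rose by 2.12 (limma adjusted p = 1e-13), and Tnfrsf19, also called Troy, changed by -0.87 (1.6e-07). Ccnd1, cyclin D1, changed by -0.90 (limma adjusted p = 0.0012), while Myc rose by 0.56 (0.0011). Nkd1 and Dkk4 are on this list and on that of the inhibitors.

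**Figure D5:**
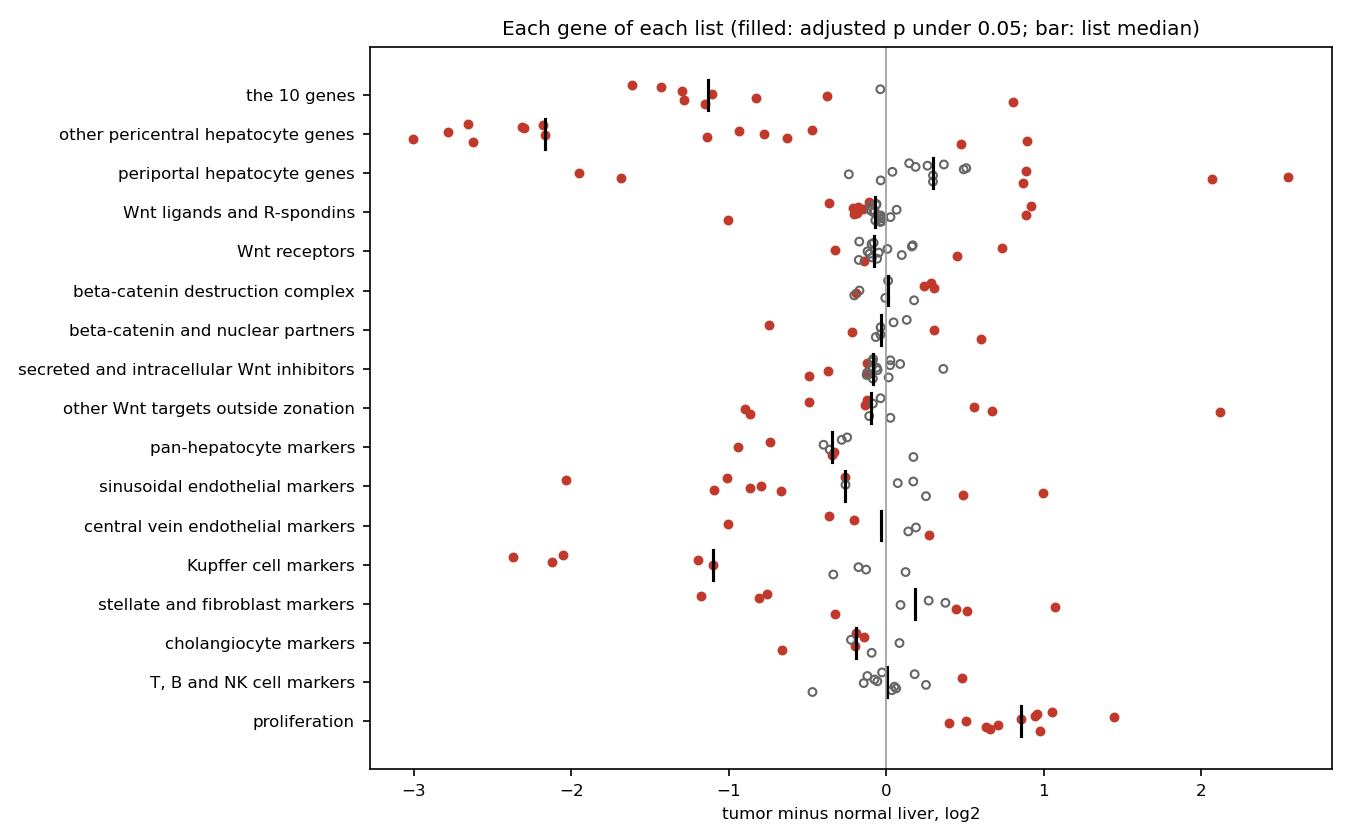
Change from normal liver to tumor (log2, horizontal axis) for each gene of the 10 and of 16 other lists, filled where the adjusted p was under 0.05, with the median of each list as a bar. The 10 genes have a median of -1.13 and the other pericentral genes of -2.17, while the Wnt ligands, receptors and inhibitors have medians near 0.

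Marker lists of the cell types of liver also differed between the tissues, and their part in the results was not tested. Of 9 pan-hepatocyte markers 4 fell and 0 rose, with a median of -0.35 and array means from 11.80 to 12.42 in normal liver and 7.85 to 12.39 in tumors; without tumor 9, 7 fell and 1 rose, and in the pairs or with arrays centred 2 fell. Apoa1 changed by -0.74 (limma adjusted p = 1.0e-04) and Serpina1a by -0.94 (1.1e-04). Of 13 sinusoidal endothelial markers 7 fell and 2 rose, Clec4g changing by -2.03 (4.3e-08), Flt4 by 1.00 (3.3e-09) and Pecam1 by 0.49 (0.0044), and array means ran from 8.95 to 10.07 in normal liver and 8.16 to 10.06 in tumors. Of 6 central vein endothelial markers 3 fell, the ligands Rspo3, Wnt2 and Wnt9b, of which Wnt9b did not pass in the pairs, and Cdh13 rose by 0.27 (0.015). Array means of these 6 ran from 7.33 to 8.33 in normal liver and 7.08 to 7.93 in tumors.

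Of 9 Kupffer cell markers 5 fell and 0 rose, among them Clec4f by -2.06 (limma adjusted p = 2.4e-10) and Vsig4 by -2.37 (3.3e-07), with array means from 8.52 to 11.03 in normal liver and 7.66 to 10.49 in tumors. Of 10 stellate and fibroblast markers 4 fell and 3 rose, Reln by -1.18 (1.4e-06), Dcn by -0.81 (1.6e-04) and Col1a1 by 1.07 (2.5e-04), with array means from 8.40 to 10.27 and from 7.75 to 10.19. Of 7 cholangiocyte markers 4 fell, and 1 in the pairs or with arrays centred, Pkhd1 by -0.66 (2.9e-05) and Krt19, not called in those 2 fits, by -0.19 (0.011), with means from 6.22 to 8.24, the highest in normal liver 16, and from 6.07 to 6.63. Of 12 T, B and NK cell markers 1, Cd4, rose by 0.48 (0.0020), and 1 rose and 2 fell without tumor 9; the means ran from 7.00 to 8.26 and from 6.86 to 10.66. All 11 proliferation genes rose (10 in the pairs, where Rrm2 did not pass), Mcm2 by 0.86 (2.4e-10) and Cdk1 by 1.45 (2.1e-09), with means from 6.84 to 8.11 and from 7.03 to 9.25.

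The labelled sexes did not separate the genes beyond their spread. In normal liver 0 of the 10 differed between males and females in limma, against 11 genes or 0.0496% of all, and 0 of the 10 had an unadjusted p under 0.05. The largest difference was that of Slc1a2, 8.54 ± 0.65 (SD, n = 20) in males and 8.23 ± 0.80 (SD, n = 9) in females, a male minus female difference of 0.32 (SE 0.25, limma adjusted p = 1.0). The change in tumors differed by sex for 0 of the 10, against 0% of all genes. Glul changed by -1.44 in females and -1.73 in males (difference -0.29, SE 0.41, limma adjusted p = 0.97). Notum had the smallest unadjusted p, 0.072 in limma, with changes of -0.79 in females and -1.37 in males (difference -0.58, SE 0.31, adjusted p = 0.95). For every gene that fell, the estimated fall was larger in males, by differences from -0.05 (Znrf3) to -0.61 (Rhbg). Oat rose more in males (difference 0.36). Of simulated sex differences of 0.5 in the tumor change, 56% were recovered, so differences of that size can be missed. Without the 7 arrays that went against their gender label, 0 of the 10 passed in either test, and 1 interaction had an unadjusted p under 0.05.

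Normal male livers marked -/- (4) were set against those marked +/- (5), and 0 of the 10 genes passed in limma, against 0% of all genes. Lgr5 was 8.20 ± 0.44 (SD, n = 5) in livers marked +/- and 7.39 ± 0.75 (SD, n = 4) in those marked -/-, a difference of -0.81 (SE 0.33, limma unadjusted p = 0.032, adjusted p = 0.73), the only unadjusted p under 0.05. Without normal liver 4, without normal liver 15 or without normal liver 27, 0 of the 10 had an unadjusted p under 0.05. Normal livers 26 and 27, which share an animal number, stand on opposite sides of this comparison. Glul was 12.43 ± 0.33 (SD, n = 5) and 11.84 ± 0.86 (SD, n = 4), and the low value among the latter was again that of normal liver 27.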

How the data were processed

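RNA was measured on Mouse Gene 2.0 ST arrays of normal liver and tumors. The authors deposited log2 values for 41345 transcript clusters, made with the tool Affymetrix Expression Console, as the submitters' processing notes say. Its version, settings and the build are not stated in them. Array medians lay between 6.72 and 7.15, and the number of arrays limits the precision. Of the clusters 23521 had 1 gene symbol in the platform annotation, 1814 several and 16010 none. A gene is its single-symbol cluster of highest mean. The 10 genes and all lists were chosen with earlier results of these data known, and the named genes of each list are up to 2 of smallest adjusted p and that of largest change, beside the 10, Ctnnb1, Wnt2, Wnt9b, Rspo3 and the 5 most like Glul in each tissue. Slc1a4, Lhpp, Wnt4, Lgr4, Ccnd1, Myc, Dkk4, Sost, Pecam1, Rrm2, Cdh13, Col1a1, Cyp11a1, Slco1b2 and Afp fall outside this rule and were named after their values were seen. The same holds for Sp5, Wnt1, Wnt5a and Wnt6.

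Tissues were compared with limma 3.58.1 (lmFit, duplicateCorrelation with statmod 1.5.0, eBayes with a trend) in R 4.3.3, with the animal as a random block (correlation 0.145) and Benjamini-Hochberg adjustment over 22180 genes. The titles pair 18 animals, refitted with the animal as a fixed replicate block. Sex was fitted over 4 groups and the marks without a block. Array titles do not say whether samples of an animal were separate extractions, so p-values measure the spread between arrays. Correlations used 100000 permutations, with both tumors of 1 animal averaged. Simulated arrays, tumors included, were drawn with the SD of the normal livers, and 200 of 22180 genes were changed by known amounts. For tumors against normal liver 92% of changes of 0.5 and 97% of changes of 1 were recovered, and for the marks 9% and 66%. For sex in normal liver these rates were 77% and 95%, and for the sex difference in the tumor change 56% and 89%. Real tumors spread more for Glul (SD 1.03 against 0.42 in normal liver) and less for Slc1a2 (0.56 against 0.70). The rates therefore hold only for the spread that was simulated.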

Additional observations from a re-analysis of the deposited data

Results flagged for a closer look

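Normal liver 27, marked -/-, lay far below the other 3 normal male livers of that mark for 4 of the 10 genes. Its gap to the nearest of the others, relative to the range of the 4, was above the 95% critical value of Dixon's test. Glul was 10.55 there against 12.22 to 12.35 in the others, and Tbx3 was 8.04 against 9.63 to 9.73. Rhbg was 7.96 against 9.47 to 9.75, and Notum was 7.10 against 8.67 to 8.93. Of 30 groups of values tested in this way (10 genes in 9 female livers and in the livers of each mark), these 4 stood out, all in 1 array, and chance gives about 1 in 20. The array lies at the tumor mean in position (1.05), with Cyp11a1 at 11.39 and Slco1b2, a hepatocyte uptake transporter, at 5.81; whether its tissue label is correct was not tested.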

How the results depend on the processing

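The count of 9 called genes of 10 in tumors ran from 6, in animals without a pair, to 10, with the mean of all clusters of a gene, over 14 alternatives; with single genes 137 of 143 alternative values kept direction and side of the threshold, 3 lost the call, 2, both of Axin2, gained it, and 1, Axin2 with arrays centred (0.02), turned direction without a call. In the 18 pairs, where the animal is the replicate block, the same 9 genes were called as over all arrays. The most genes above every normal liver in a tumor, 1, was 2 against the tumor's own liver plus 1 log2 unit, with arrays centred on the median, with quantile normalization, against the second highest normal liver and without normal liver 27 (the last chosen after seeing the data, as was reading the other clusters). Relations with Glul that passed numbered 8 in tumors, 1 by rank and 3 without the 2 farthest; in normal liver 6, 3 by rank, 1 without the 2 farthest and 1 without normal liver 27. For sex and the marks the count was 0 under every alternative run, the livers left out in turn included (0 to 0). List genes called, 95 of 191, ran from 76 in the pairs to 111 without tumor 9. Detection limits and hybridization dates were not analysed here, so how near dim clusters lie to background is unknown.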
